A study of Mus musculus with 19 samples.

Results

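Cyclin-dependent kinase (CDK) inhibitors and genes of the p53 pathway were examined as a set of 10 genes in cultured hepatic stellate cells (HSCs). The members were taken from a list of gene symbols, matched to the Ensembl identifiers of the deposited table: Cdkn1a, Cdkn1b, Cdkn1c, Cdkn2a, Cdkn2b, Cdkn2c, Mdm2, Ccng1, Trp53 and Gdf15. All 10 were found among the 55487 genes of the table, and 9 of them passed the filter on low counts that left 15138 genes for testing. Cdkn2a had 0 counts in all 19 samples. The question was whether Cdkn1a moves with the other p53 targets when HSCs are placed in culture.

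HSCs were sorted by ultraviolet positivity, which relies on their stored vitamin A, from untreated healthy male Balb/c mice of 23 to 24 weeks. Cells taken without culture (0 h) gave 2 samples, as did cultures of 24 h, and cultures of 3, 6, 12, 18 or 96 h gave 3 per timepoint. The plates were coated with collagen and the medium was DMEM with 10% fetal bovine serum, antibiotics and glutamine. Medium was renewed after 3 h and 24 h, and each sample stands for 2 technical repeats that the table does not separate. Replicates are named M1, M2 and M3 as in the labels, which do not say what M stands for: 0 h holds M2 and M3, 24 h holds M1 and M2, and the other timepoints hold all 3. Each M number carries the same isolation date at all its timepoints, a date of its own for M2 and a common one for M1 and M3.

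CDK inhibitors hold back the kinases that drive a cell through its division cycle. Those of the Cip/Kip family (p21, p27 and p57, encoded by Cdkn1a, Cdkn1b and Cdkn1c) bind several cyclin-CDK complexes, whereas those of the INK4 family (Cdkn2a, Cdkn2b, Cdkn2c and Cdkn2d) bind the CDK partners of D-type cyclins. The transcription factor p53, encoded by Trp53, is kept low by the ubiquitin ligase Mdm2 and switches on Cdkn1a, Mdm2 itself and Ccng1 when DNA is damaged or the cell is stressed. Cdkn1a also answers to growth factors, serum and TGF-beta without p53. Quiescent HSCs of the healthy liver do not divide, and HSCs on plastic turn into proliferating myofibroblasts within days.

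Promoter windows were read for 9 of the 10 members from RefSeq on GRCm38.p6, each spanning 250 bases before to 50 bases after a start site. The windows were searched on both strands for the 10-base p53 half-site consensus. A half-site was present in 8.36% of all 32851 windows and in the windows of Cdkn1a, Mdm2, Ccng1 and Trp53, but the letters were not found in those of Gdf15, Cdkn1b, Cdkn2a, Cdkn2b or Cdkn2c. These 4 sequences are shown because their genes are compared below. They run 5′ to 3′ along the gene, with the half-sites in capitals. Cdkn1a has a pair of half-sites before the upstream of its 2 start sites, at 73 and 51 bases before it, and the downstream window held none. The half-sites of Mdm2, Ccng1 and Trp53 began 186, 185 and 75 bases before their start sites. A match of this kind is a description of the letters and not a measured binding site.
Cdkn1a, upstream start, chr17:29090729-29091028, plus strand: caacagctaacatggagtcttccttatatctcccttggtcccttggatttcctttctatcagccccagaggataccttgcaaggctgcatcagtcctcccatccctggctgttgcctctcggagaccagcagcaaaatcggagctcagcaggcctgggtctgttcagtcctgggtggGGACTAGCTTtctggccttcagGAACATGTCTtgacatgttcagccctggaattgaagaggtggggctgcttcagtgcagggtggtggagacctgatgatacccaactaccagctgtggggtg
Mdm2, chr10:117710709-117711008, minus strand: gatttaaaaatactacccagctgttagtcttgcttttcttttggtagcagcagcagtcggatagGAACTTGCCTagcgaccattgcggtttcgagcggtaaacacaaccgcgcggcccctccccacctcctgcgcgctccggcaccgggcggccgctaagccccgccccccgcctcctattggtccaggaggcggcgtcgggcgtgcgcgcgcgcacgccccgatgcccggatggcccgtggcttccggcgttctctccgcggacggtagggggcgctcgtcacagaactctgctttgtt
Ccng1, chr11:40755237-40755536, minus strand: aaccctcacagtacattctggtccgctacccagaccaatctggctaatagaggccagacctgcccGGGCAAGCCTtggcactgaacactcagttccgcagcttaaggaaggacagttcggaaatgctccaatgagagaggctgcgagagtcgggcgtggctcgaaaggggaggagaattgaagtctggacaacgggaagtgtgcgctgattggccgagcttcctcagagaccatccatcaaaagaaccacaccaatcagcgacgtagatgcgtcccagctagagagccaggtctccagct
Trp53, chr11:69580109-69580408, plus strand: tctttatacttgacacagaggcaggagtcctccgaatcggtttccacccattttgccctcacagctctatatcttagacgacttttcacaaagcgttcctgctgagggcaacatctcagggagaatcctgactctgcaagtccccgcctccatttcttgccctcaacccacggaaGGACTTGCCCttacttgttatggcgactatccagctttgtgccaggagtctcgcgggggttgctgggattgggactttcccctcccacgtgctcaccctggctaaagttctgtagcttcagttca

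Raw counts were scaled to the library total (CPM) with the TMM method, and totals per sample lay between 2073171 and 7690892. A level of 3 counts, the smallest considered here, equalled 0.386 to 1.51 CPM, and the shallowest sample was M3 at 0 h. The summed CPM of 8 HSC markers (Lrat, Reln, Hgf, Des, Pdgfrb, Colec11, Ecm1 and Rgs5) was 12693 to 15674 at 0 h and 793 to 938 at 96 h. That of 6 hepatocyte markers fell from between 3083 and 6998 at 0 h to between 26.6 and 72.6 at 96 h, and that of 8 Kupffer cell and leukocyte markers from between 289 and 341 to between 23.3 and 46.2. The 6 sinusoidal endothelial markers summed to 405 to 595 CPM at 0 h, 641 to 2251 at 3 h and 6.93 to 104 at 96 h. Of the 3 cholangiocyte markers, Krt19 and Krt7 were at 0 in every sample, and Epcam was found at 6 h only, at up to 1.19 CPM. The part of these other cells in the results was not tested. Of the 3866 genes averaging at least 50 CPM, 408 (10.6%) were at 0 in at least 1 sample, so a single 0 beside high replicates is not rare in this table. In bulk samples, fewer cells of a type and less RNA per cell cannot be told apart.

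A gene was called when edgeR's quasi-likelihood test gave an adjusted p below 0.1 with a fold change above 2. Against 0 h, 3 of the 9 tested members were called after 3 h of culture, when 5.58% of all tested genes were. After 6 h it was 4 members (against 11.3% of all genes), after 12 h 5 members (17.7%), after 18 h 6 members (15.9%), after 24 h again 6 members (9.51%) and after 96 h 4 members (10.9%). All these calls were higher in culture except that of Ccng1 at 3 h. Cdkn1a, Cdkn2b, Mdm2, Ccng1, Trp53 and Gdf15 were each called over all times, as were 27.4% of all genes, and Cdkn1b, Cdkn1c and Cdkn2c were not. Between neighbouring timepoints changes were few: 0 members were called from 3 to 6 h (4.49% of all genes), from 6 to 12 h (1.84%), from 18 to 24 h (0.0396%) and from 24 to 96 h (2.72%), and 1 from 12 to 18 h (0.225%). By unadjusted p below 0.05 these 4 empty comparisons held 3, 1, 1 and 2 members, a rule whose share over all genes was not counted. DESeq2 called 1, 0, 0 and 1 members, and 1338, 864, 229 and 844 of all genes, more than edgeR in each. The called members did not share one course: Cdkn1a stood high from 3 h, the mean of Mdm2 climbed up to 24 h, Ccng1 rose only from 18 h and Gdf15 peaked at 12 h.

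**Figure D1:**
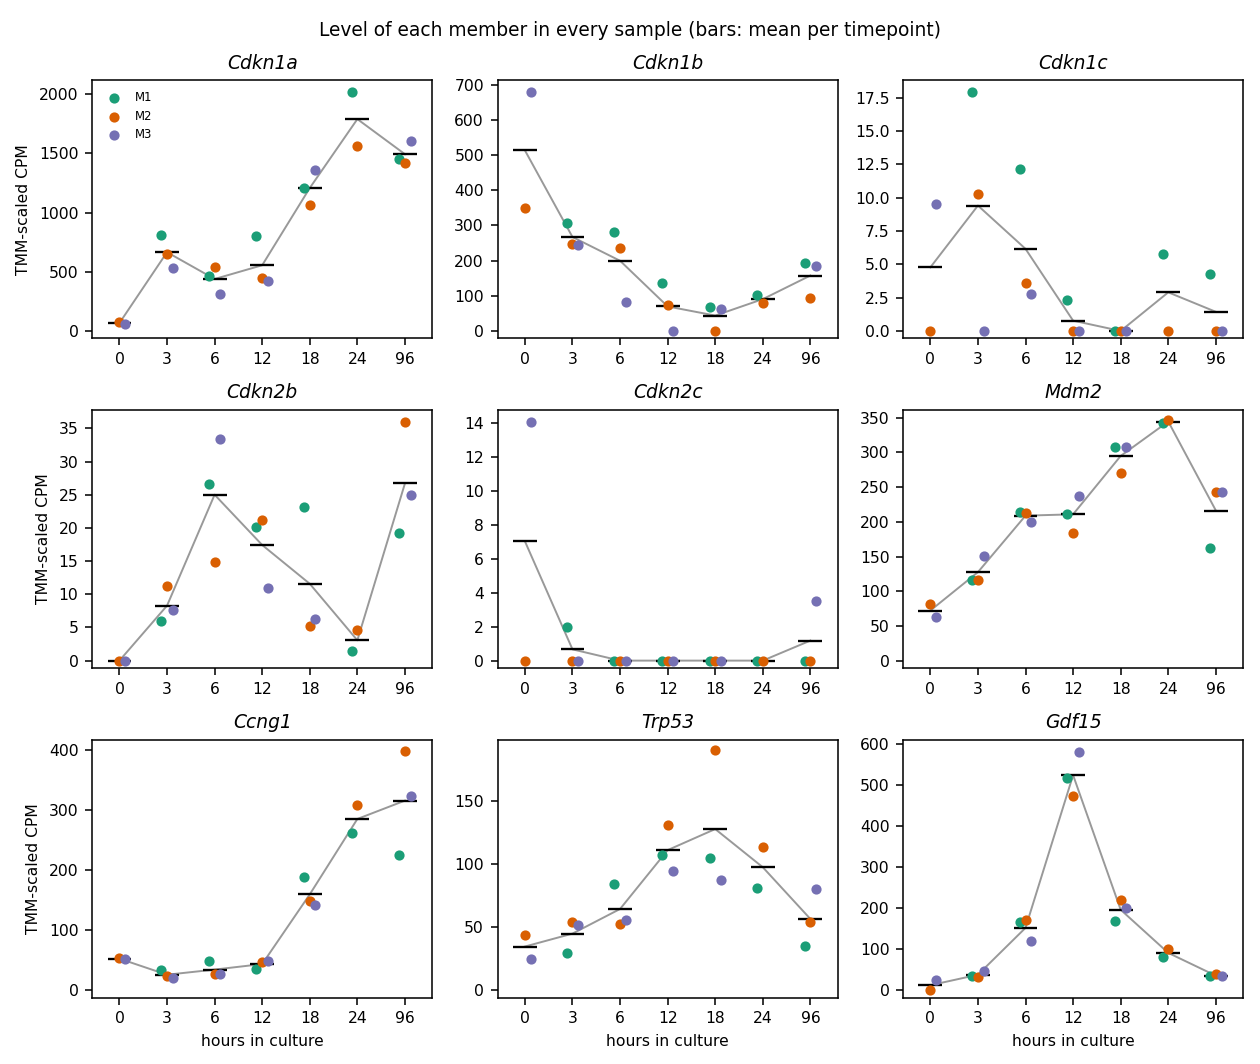
TMM-scaled CPM (y axis, linear, one scale per gene) of the 9 members with counts in each of the 19 samples against hours in culture (x axis, timepoints evenly spaced), with points coloured by M number and bars and lines at timepoint means. Cdkn1a is above both 0 h samples in all 17 cultured samples, Ccng1 stays at or below 53.7 CPM through 12 h and is at 142 CPM or more from 18 h, and Gdf15 peaks at 12 h.

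Cdkn1a (ENSMUSG00000023067, chromosome 17, 29090976 to 29100727, plus strand, GRCm38) encodes p21, the inhibitor through which p53 stops the cell cycle. It stood at 74.2 and 59.3 CPM in the fresh samples M2 and M3. The 3 h cultures gave 814, 646 and 535 CPM, those of 6 h 463, 542 and 311 CPM, and those of 12 h 798, 445 and 421 CPM. Later cultures gave 1205, 1060.0 and 1358 CPM (18 h), 2019 and 1559 CPM (24 h), and 1456, 1419.8 and 1602 CPM (96 h). Every cultured sample was thus above both fresh ones, and the levels formed a first plateau from 3 to 12 h and a second from 18 h that did not overlap. The rise over 0 h was 3.31 ± 0.33 (log2 fold change ± SE, adjusted p = 1.25e-05, edgeR) at 3 h, and it ranged from 2.71 ± 0.32 (6 h) to 4.74 ± 0.36 (24 h). Within the culture, no step between neighbouring timepoints was called for Cdkn1a. From 12 to 18 h it changed by 1.12 ± 0.25 (adjusted p = 0.128, edgeR), a step that was called with the M number as a block. Between timepoints farther apart it rose further, by 2.03 ± 0.28 from 6 to 24 h (adjusted p = 0.000518, edgeR) and by 1.43 ± 0.25 from 12 to 96 h (adjusted p = 0.00128, edgeR). The study placed Cdkn1a on its list of initiation genes partly from its level in these samples at 6 h and 12 h, so the rise at those times is not independent evidence. An antisense transcript of unknown coding status, AC167363.2, overlaps an exon of Cdkn1a away from its 3′ end, and whether strand was used in counting is not given in the sources used here.

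Mdm2 (ENSMUSG00000020184, chromosome 10, 117688875 to 117710758, minus strand) is both a p53 target and the ligase that marks p53 for degradation. Its fresh samples held 81.0 and 63.3 CPM. It gave 115, 116 and 151 CPM at 3 h, 214, 212 and 200.4 CPM at 6 h, and 212, 184 and 236 CPM at 12 h. At 18 h the values were 307, 270.1 and 307 CPM, at 24 h 342 and 347 CPM, and at 96 h 162, 243 and 244 CPM. All cultured samples lay above the fresh ones. The replicates lay closest at 24 h and farthest apart at 96 h. The change from 3 to 6 h (0.71 ± 0.19, adjusted p = 0.0452, edgeR) stayed under the 2-fold limit. That from 12 to 18 h (0.48 ± 0.19, adjusted p = 0.495, edgeR) was not called either. At 3 h the log2 fold change of 0.82 ± 0.22 had an adjusted p of 0.0409 (edgeR) but stayed under the 2-fold limit. Mdm2 was called at 6 h (1.53 ± 0.22) and at all later timepoints, with its largest change of 2.25 ± 0.24 at 24 h (adjusted p = 1.51e-05, edgeR). The difference between 96 h and 24 h (−0.67 ± 0.21, adjusted p = 0.136, edgeR) was not called.

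Ccng1 (ENSMUSG00000020326, chromosome 11, 40748552 to 40755311, minus strand) encodes cyclin G1, a p53 target that acts back on p53 through Mdm2. The fresh samples gave 53.7 and 51.7 CPM. The cultures held 33.5, 24.0 and 20.3 CPM at 3 h, 48.9, 27.8 and 26.7 CPM at 6 h, and 34.7, 47.7 and 48.7 CPM at 12 h. From then on they held 188, 149 and 142 CPM at 18 h, 262 and 309 CPM at 24 h, and 225, 399 and 324 CPM at 96 h. All 9 samples from 3 to 12 h were thus below both fresh samples and all 8 from 18 h on were above them. Ccng1 was called lower at 3 h (−1.03 ± 0.32, adjusted p = 0.0876, edgeR), a call that was lost with the M number as a block (adjusted p = 0.104, edgeR) and without any of 9 single samples, both fresh ones included (adjusted p = 0.333 without M2 and 0.255 without M3, edgeR). It was called higher at 18 h (1.60 ± 0.33), 24 h (2.44 ± 0.36) and 96 h (2.58 ± 0.35). The step from 12 to 18 h, 1.87 ± 0.29 (adjusted p = 0.0107, edgeR), was the only one between neighbouring timepoints called for a member.

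Trp53 (ENSMUSG00000059552, chromosome 11, 69580359 to 69591873, plus strand) was itself higher in the middle of the culture. Its fresh samples held 44.1 and 25.1 CPM, and the cultures 29.5, 53.7 and 51.4 CPM at 3 h and 84.5, 52.7 and 55.9 CPM at 6 h. The values were 107, 131 and 94.3 CPM at 12 h, 105, 190.2 and 87.7 CPM at 18 h, 81.3 and 114 CPM at 24 h, and 35.3, 54.3 and 79.8 CPM at 96 h. The samples of 3 h and 96 h overlapped those of 0 h, and those from 6 to 24 h did not. Trp53 was called higher at 12 h (1.67 ± 0.46, adjusted p = 0.0213, edgeR), 18 h (1.88 ± 0.46, adjusted p = 0.0127, edgeR) and 24 h (1.49 ± 0.48, adjusted p = 0.0788, edgeR). Without the fresh sample M3, none of these 3 calls remained (adjusted p = 0.213, 0.164 and 0.415, edgeR), and the one at 24 h was also lost without M2 at 0 h (0.111) or without either 24 h sample (0.136 and 0.417). The 24 h call was further lost with DESeq2 size factors, without the filter and with the compared groups only (adjusted p = 0.148, 0.170 and 0.116, edgeR). All values given for Trp53 describe the transcript, whereas p53 is mainly set by the stability of its protein, which was not measured.

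Gdf15 (ENSMUSG00000038508, chromosome 8, 70629393 to 70632456, minus strand) encodes a secreted stress hormone of the TGF-beta superfamily that answers to p53 and also to the amino acid and endoplasmic reticulum stress factors ATF4 and CHOP. It was at 0 in the fresh sample M2 and at 24.6 CPM in the fresh M3. The cultures gave 35.5, 31.9 and 46.4 CPM at 3 h, 166, 171 and 119 CPM at 6 h, and 517, 474 and 582 CPM at 12 h. They then held 169, 219 and 200.2 CPM at 18 h, 80.5 and 102 CPM at 24 h, and 33.8, 38.7 and 34.0 CPM at 96 h. The 12 h samples stood apart from all others, and the levels at 96 h fell within those of 3 h. Against 0 h Gdf15 was called higher at 6 h (3.71 ± 0.93), 12 h (5.50 ± 1.01, adjusted p = 0.00126, edgeR), 18 h (4.08 ± 0.94) and 24 h (2.97 ± 0.93, adjusted p = 0.0675, edgeR). Fitted with the compared groups only, the calls at 6 h, 18 h and 24 h were lost (adjusted p = 0.214, 0.188 and 0.434, edgeR). The call at 24 h was also lost without either 24 h sample and with DESeq2 size factors. The change at 12 h lay between 4.41 and 14.35 when single samples were left out, and without the fresh M3, which leaves the fresh group at 0, the gene was called at 3 h and 96 h too. From 12 to 96 h it fell by 3.88 ± 0.76 on the log2 scale (adjusted p = 0.00283, edgeR), a comparison that does not use the fresh samples.

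**Figure D2:**
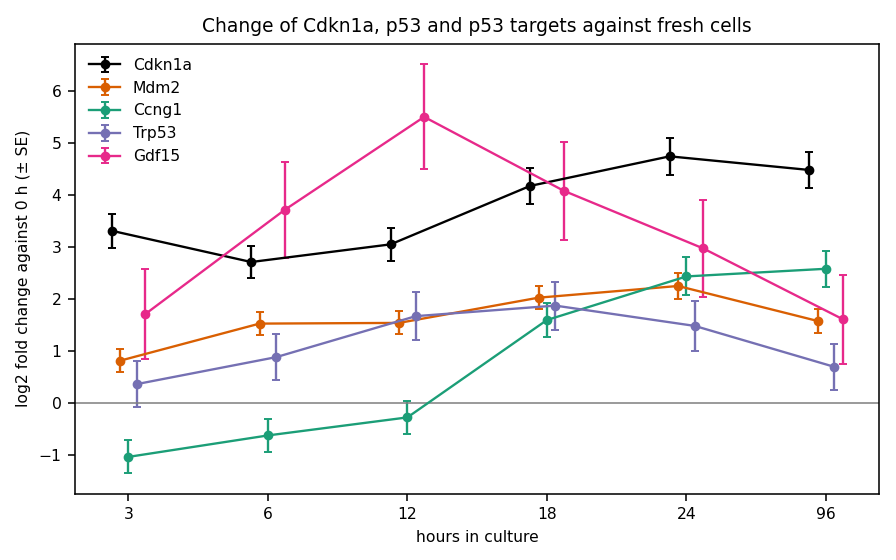
Log2 fold change against 0 h (y axis, ± SE from the edgeR fit of all 19 samples) of 5 members at each culture time (x axis, hours, timepoints evenly spaced). Cdkn1a starts at 3.31 at 3 h when Mdm2 is at 0.82 and Ccng1 at −1.03, and Gdf15 reaches 5.50 at 12 h and is back at 1.62 at 96 h.

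The rise of Cdkn1a was set against that of each other p53 pathway member within the same sample, as the difference of their log2 CPM with a prior count of 2. In the fresh samples this log2 ratio was −0.11 ± 0.02 (SD, n = 2) for Mdm2, 0.33 ± 0.19 for Ccng1 and 0.98 ± 0.34 for Trp53. Over the 17 cultured samples it was higher by 2.08, 3.01 and 2.51, and all 17 lay above both fresh samples in each of the 3 ratios. The two-sided exact permutation test over samples gave p = 0.00585 for each, the smallest value that its 171 assignments allow, with an adjusted p of 0.0078 over the 4 ratios tested. In these samples Cdkn1a thus rose more than Mdm2, Ccng1 or Trp53 did. Cdkn1a alone rose by 2.71 to 4.74 (log2), so its ratio to any gene that changed little would also be higher. Ratios to genes outside the p53 pathway were not tested, so the result cannot be called particular to these 3 genes. The study had listed Cdkn1a partly from its level in the 6 h and 12 h samples, which the test includes. The members were also chosen with earlier results known, so these p-values are not independent evidence. The test treats all 17 cultured samples as one group. However, samples of one timepoint are not exchangeable with those of another, and samples of one M number may share their cells. Its p-value therefore does not measure the spread of independent replicates. The test was repeated with assignments kept within M numbers, on M2 and M3 only, because M1 has no fresh sample. The differences were then 1.91, 2.96 and 2.28 (exact permutation test, adjusted p = 0.0317 for each), again at the smallest p that the assignments allow. These assignments still exchange timepoints within M2 and M3, so this p does not rest on independent replicates either. Against Gdf15 the ratio changed by −1.46 in culture (exact permutation test, p = 0.398), and the 2 fresh samples differed widely because Gdf15 was at 0 in one of them.

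The gap between Cdkn1a and its companions was not constant. Relative to fresh cells, the Cdkn1a to Mdm2 ratio was up by 2.48 (3 h), 1.14 (6 h), 1.45 (12 h) and 2.92 (96 h), all on the log2 scale. The ratio to Ccng1 was up by 4.34 at 3 h and by less at each following timepoint, down to 1.95 at 96 h. That to Trp53 was up by 2.92 at 3 h, by 1.28 at 12 h and by 3.80 at 96 h. The SD of the Cdkn1a to Ccng1 ratio was 0.07 at 3 h (n = 3), against 0.78 at 12 h (n = 3).

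**Figure D3:**
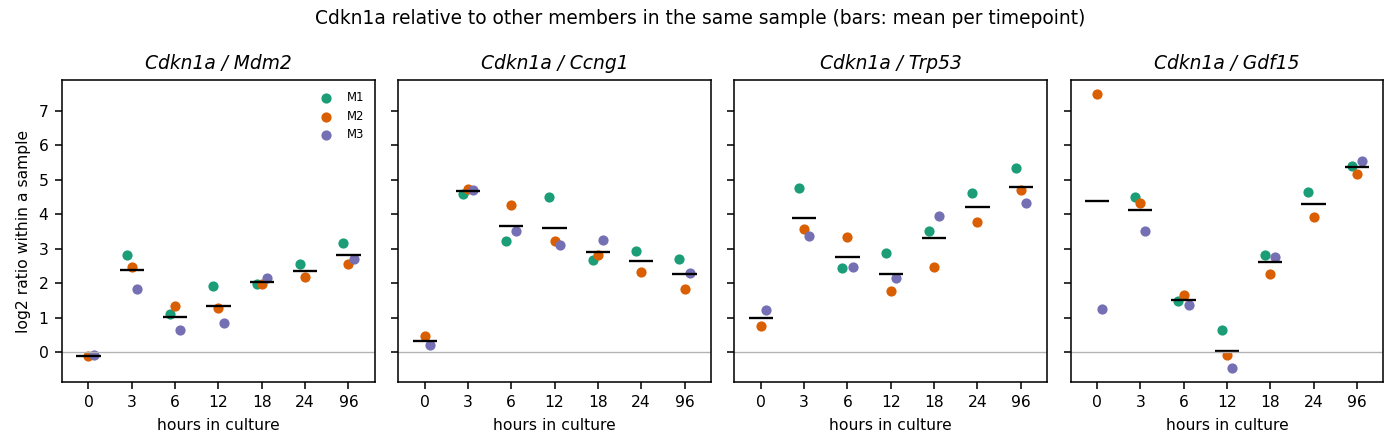
Log2 ratio of Cdkn1a to Mdm2, Ccng1, Trp53 and Gdf15 (y axis, shared) in each sample against hours in culture (x axis, timepoints evenly spaced), coloured by M number, with bars at timepoint means. For Mdm2, Ccng1 and Trp53 all 17 cultured samples lie above both fresh samples, and for Gdf15 the fresh samples lie far apart.

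The other Cip/Kip genes did not follow Cdkn1a. Cdkn1b (ENSMUSG00000003031, chromosome 6, 134920401 to 134925513, plus strand) encodes p27, which keeps resting cells out of the cycle and is mostly regulated through protein turnover. Its fresh samples held 348 and 678 CPM, and the cultures 245 to 308 CPM at 3 h, 81.1 to 282 CPM at 6 h, 0 to 135 CPM at 12 h and 0 to 69.2 CPM at 18 h. At 24 h they held 102 and 78.4 CPM and at 96 h 193, 93.6 and 186 CPM. All 17 cultured samples lay below both fresh ones, yet no timepoint was called, with log2 fold changes from −0.94 ± 1.41 at 3 h to −3.56 ± 1.48 at 18 h (adjusted p = 0.138, edgeR). The count was 0 in M3 at 12 h and in M2 at 18 h, beside 284 to 584 counts in the other samples of these times, and without the first of these samples the gene was called lower at 18 h (adjusted p = 0.0431, edgeR), as it was by DESeq2 with all samples (adjusted p = 0.0978). Fitted with the compared groups only, it was called lower at 24 h (−2.53, adjusted p = 0.0465, edgeR) and 96 h (−1.71, adjusted p = 0.0545, edgeR). Hepatocyte marker sums fell along the same times, from at least 3083 CPM at 0 h to at most 151 CPM at 12 h, and their part in the Cdkn1b values was not tested. Cdkn1c (ENSMUSG00000037664, chromosome 7, 143458339 to 143461050, minus strand), which encodes p57, held 242 counts in all samples together and lay between 0 and 17.9 CPM. It was at 0 in 10 of the 19 samples and was called at no timepoint, but with the M number as a block it was called lower at 18 h (adjusted p = 0.0965, edgeR).

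Within the INK4 family, Cdkn2b (ENSMUSG00000073802, chromosome 4, 89306299 to 89311039, minus strand) was the one member to rise. It encodes p15, an inhibitor known as a target of TGF-beta. The gene was at 0 in both fresh samples, then at 5.97, 11.3 and 7.62 CPM at 3 h, 26.7, 14.9 and 33.4 CPM at 6 h, and 20.2, 21.2 and 10.9 CPM at 12 h. It held 23.2, 5.26 and 6.33 CPM at 18 h, 1.5 and 4.63 CPM at 24 h, and 19.2, 36.0 and 24.9 CPM at 96 h. All cultured samples had counts, from 7 upward, and the level was low at 24 h between higher values at 6 h and 96 h. Against a floor of 3 counts in the shallower fresh sample, it was at least 5.50-fold higher after 3 h, 16.6-fold after 6 h, 2.03-fold after 24 h and 17.7-fold after 96 h. It was called at all 6 times, with adjusted p between 0.000667 and 0.00963 (edgeR). Fitted with the compared groups only, the call at 3 h was lost (adjusted p = 0.107, edgeR). The call at 24 h was lost without the fresh sample M2 (adjusted p = 0.114, edgeR).

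Cdkn2a (ENSMUSG00000044303, chromosome 4, 89274471 to 89294653, minus strand), which encodes p16 and the p53 activator p19Arf from transcripts with a common 3′ end, was not detected at this depth in any sample. At 0 counts, levels up to between 0.386 and 1.51 CPM remain possible, depending on the sample, for counting error only. Cdkn2c (ENSMUSG00000028551, chromosome 4, 109660876 to 109667189, minus strand) encodes p18. It had 55 counts in total, of which 28 were in the fresh sample M3, and was at 0 in all 11 samples from 6 to 24 h. It was called at no timepoint. Cdkn2d, the INK4 gene for p19 and not one of the 10 members, held 35.6 and 34.6 CPM in the fresh samples and 12.5 to 28.2 CPM at 3 h. It was at 0 in all 12 h and 18 h samples, where it was at least 50.5-fold and 48.0-fold lower (adjusted p = 0.00436 and 0.00532, edgeR). At 96 h it stood at 22.1 to 34.3 CPM again.

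A list of 36 known p53 targets, grouped by function and including Cdkn1a, Mdm2, Ccng1 and Gdf15, was followed next, and 35 of them passed the filter. At 3 h 4 were called higher and 4 lower, while 4.19% and 1.39% of all tested genes were called in these directions. After 6 h the numbers called higher and lower were 8 and 1 (6.98% and 4.35% of all genes), after 12 h 10 and 2 (8.6% and 9.1%), and after 18 h 11 and 1 (7.64% and 8.21%). After 24 h they were 10 and 2 (5.65% and 3.86%) and after 96 h 9 and 2 (5.83% and 5.03%). The median log2 fold change of the 35 was 0, 0.65, 0.64, 1.60, 2.13 and 1.58 at the 6 culture times in order. Over all tested genes the median was 0 at every time up to 24 h and 0.07 at 96 h. Targets at 0 in all samples of a group were then set to their bound, or left out where they had none. The median of the targets kept was −0.30, 0.76, 0.67, 1.35, 1.89 and 1.32. The split at 3 h rested on few samples: without the fresh sample M2 only Btg2 was called lower, and without M1 or M2 at 3 h only Cdkn1a and Sesn2 were called higher. The small numbers called lower later moved as well. DESeq2 called more of all genes at 6 h, counted either way (2589, against 1715 by edgeR). At 6 h DESeq2 called 4 targets lower, and 2 were called lower without M2 at 6 h. At 12 h it was 1 without either fresh sample or M3 at 12 h and 4 without M1 at 12 h, at 24 h it was 1 without the fresh M3 or either 24 h sample, and at 96 h it was 4 without M2 at 96 h.

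Like Ccng1, a few further targets were lower than fresh at 3 h and higher from 18 h, but not all of them waited until 18 h. Phlda3, which inhibits the kinase Akt, held 27.1 and 20.1 CPM when fresh, 3.32 to 12.5 CPM at 3 h, 94.8 to 125 CPM at 18 h and 179 and 266 CPM at 24 h. Zmat3, an RNA-binding p53 target, held 31.6 and 24.1 CPM when fresh, 4.31 to 11.7 CPM at 3 h, 42.6 to 65.3 CPM at 6 h, 34.3 to 66.0 CPM at 12 h, 113 to 119.9 CPM at 18 h and 175 and 211 CPM at 24 h. For both, all 3 h samples were below and all samples from 18 h on above the fresh ones, and Zmat3, unlike Ccng1, was already above them at 6 h and 12 h. Phlda3 was called lower at 3 h (−1.59, adjusted p = 0.0779, edgeR) and higher at 18 h (2.18, adjusted p = 0.00906, edgeR), and Zmat3 by −1.72 (0.0232) and 2.07 (0.00438). The lower call of Phlda3 at 3 h was lost, and that of Zmat3 was not, with the M number as a block. Rps27l, a small ribosomal-protein-like target, held 131 and 156 CPM when fresh, 68.6 to 97.1 CPM at 3 h and 810.4 and 821 CPM at 24 h. It was called higher from 12 h (1.42) through 24 h (2.51, adjusted p = 6.94e-05, edgeR) to 96 h (2.04). From 3 to 6 h Zmat3 (2.60, adjusted p = 0.00148, edgeR) and Rps27l (1.40, adjusted p = 0.00499, edgeR) were called higher, while Ccng1 was not called.

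Other targets were up sooner than Ccng1. Sesn2, a stress-inducible inhibitor of mTORC1 signalling, held 2.51 and 0 CPM when fresh and 71.0 to 86.3 CPM at 3 h, 65.6 to 136 CPM at 6 h and 18.9 to 24.7 CPM at 96 h. It was called at all times (5.74 at 3 h, adjusted p = 0.000424, edgeR). Tigar, a regulator of glycolysis, was at 0 in both fresh samples and reached 19.95 and 23.1 CPM at 24 h, at least 14.3-fold higher. Aen, a nuclease of the apoptotic pathway, held 8.53 and 31.6 CPM when fresh and 39.1 to 43.5 CPM at 3 h. It was called from 6 h (2.42, adjusted p = 0.00151, edgeR) to 96 h (2.55). Plk2, a polo-like kinase, held 212 and 391 CPM when fresh, 1142 to 1838 CPM at 6 h and 137 to 234 CPM at 96 h, and was called higher at 6, 12 and 18 h only. Ddit4, which dampens mTORC1, was called higher at 3, 6 and 12 h, with 61.4 CPM and 0 in the fresh samples and 228 to 367 CPM at 3 h.

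Btg2 and Xpc ran the other way. Btg2, an anti-proliferative p53 target and immediate early gene, held 1693 and 915 CPM when fresh, 295 to 394 CPM at 3 h and 74.8 to 106 CPM at 96 h. It was called lower at all 6 times, by −1.88 at 3 h (adjusted p = 0.000905, edgeR) and −3.83 at 96 h (adjusted p = 7.15e-07, edgeR). Xpc, a sensor of bulky DNA lesions, held 74.2 and 81.3 CPM when fresh and 5.39 to 17.8 CPM at 96 h, and was called lower at 12, 24 and 96 h. Of the 8 cell death targets tested, Aen was the one called against 0 h, from 6 h on (12.5%, against 9.51% to 17.7% of all genes). This share is near the background. Over all times 3 were called, Bax, Tnfrsf10b and Aen (37.5%, against 27.4% of all genes). Tnfrsf10b held 1.76 to 6.03 CPM when fresh, 24.4 to 63.9 CPM at 24 h and 27.5 to 73.0 CPM at 96 h. Bax held 42.2 and 45.4 CPM when fresh and 167 to 208 CPM at 18 h, with 2.08 on the log2 scale and an adjusted p of 0.175 (edgeR).

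**Figure D4:**
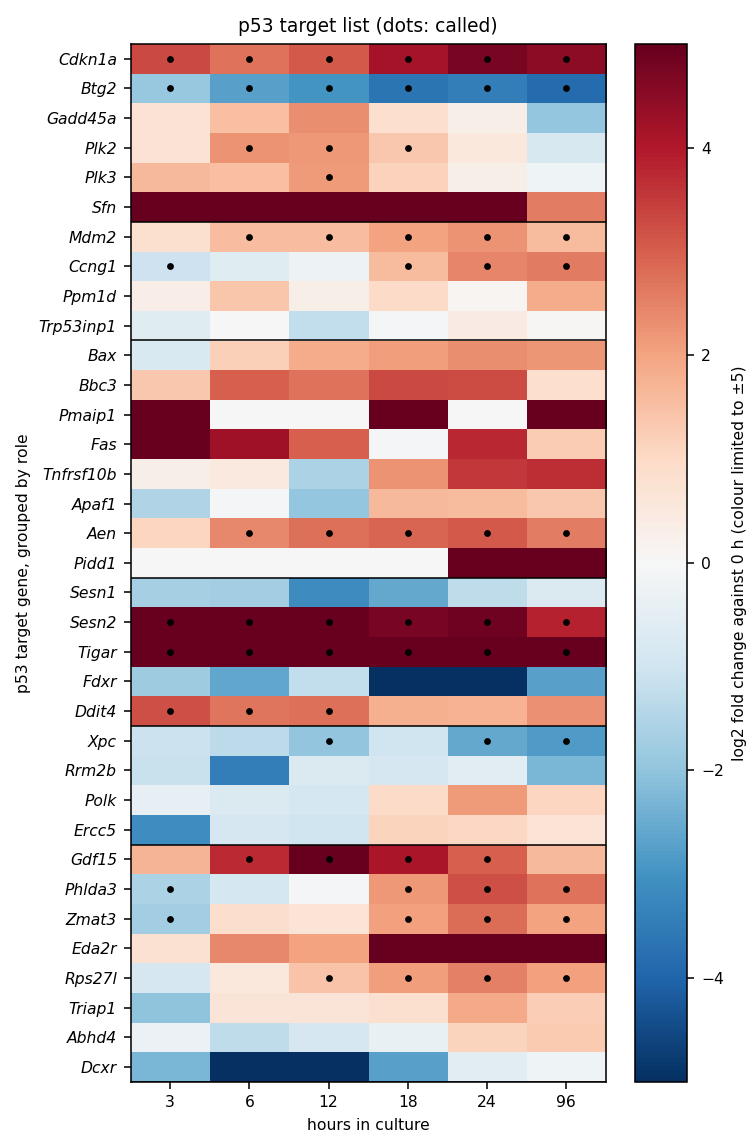
Log2 fold change against 0 h (colour, limited to ±5) of the 35 tested p53 targets (rows, grouped by role with lines between groups) at each culture time (columns, hours), with a dot where the gene was called. Cdkn1a, Sesn2 and Tigar are called higher at all 6 times and Btg2 lower at all 6. Ccng1 and Phlda3 change from lower at 3 h to higher from 18 h. Zmat3 is lower at 3 h and higher from 6 h, and it is called higher from 18 h. Colours of genes at 0 in all samples of a group depend on the prior count and have no scale.

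Likeness to Cdkn1a was described by Pearson's r over the means of the 7 timepoints, which share the low 0 h value and are too few for a test. It was 0.88 for Mdm2, 0.61 for Ccng1, 0.62 for Trp53, 0.60 for Gdf15 and 0.64 for Cdkn2b, and −0.49, −0.35 and −0.72 for Cdkn1b, Cdkn1c and Cdkn2c. Ranks gave a different picture for some: Spearman's rho over the same means was 0.86 for Mdm2 and 0.64 for Ccng1, but 0.39 for Trp53, 0.14 for Cdkn2b, 0.07 for Gdf15 and −0.04 for Cdkn2c. The median over the 34 other p53 targets tested was 0.48, against 0.06 over all tested genes, with a range from −0.93 for Btg2 to 0.91 for Tigar. Of these 34, 3 (8.82%) had an r over 0.8, namely Mdm2, Aen and Tigar, as did 4.35% of all tested genes. Among genes averaging 50 CPM or more, the 5 most like Cdkn1a were Vcp (0.97), Lmnb1 (0.97), Tpm3-rs7 (0.97), Mtmr2 (0.97) and Eif3f (0.96), none of them on the p53 target list. Vcp, an ATPase that unfolds ubiquitinated proteins, rose from 266 CPM at 0 h to 583 CPM at 3 h and 707 CPM at 96 h as timepoint means. Once timepoint means were removed, the r of Mdm2 with Cdkn1a over the 19 samples was 0.04 and that of Ccng1 0.01.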

How the data were processed

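RNA of sorted HSCs was made into QuantSeq 3′ mRNA libraries, and single-end reads were trimmed, mapped with STAR to GRCm38.p6 and assembled with StringTie. The authors deposited raw counts per Ensembl gene, without normalization; the counting tool and annotation are not given in the sources used here. As reads come from transcript ends, levels are not scaled by length and are compared between samples of a gene only.

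Counts were filtered with filterByExpr, scaled by TMM and fitted in edgeR 4.0.16 (R 4.3.3) as one model of all 19 samples without covariates. P-values were adjusted over 15138 genes by Benjamini-Hochberg, and a call needed both an adjusted p under 0.1 and more than a 2-fold change. Within-sample ratios were tested by exact permutation. Symbols came from GENCODE vM21 on GRCm38 and promoter windows from RefSeq on GRCm38.p6. Samples were grouped by the labels. The M number pairs samples only in that each number carries one isolation date in the labels; the mean r of residuals was 0.014 within M numbers (51 pairs) and −0.007 between them (103 pairs). Floors of 3 counts cover counting error only.

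The members and lists were chosen with earlier results of these data known. Named in the text are all members, genes of the lists called over all times with the largest change at 24 h (at most 4 per list), genes that make up a short count, and the 5 genes most like Cdkn1a. The alternatives were scaling by library size or by DESeq2 size factors, DESeq2 1.42.0, no filter, the M number or the isolation date in the model, the compared groups only, another threshold and leaving out each sample.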

Additional observations from a re-analysis of the deposited data

How the results depend on the processing

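The members' changes against 0 h were followed under the other settings, including the fit of the compared groups only but not the leaving out of single samples. Of these changes, 353 kept their direction and call, 12 lost and 4 gained a call, and 2 reversed. The reversed ones were of Cdkn1c, which with the M number as a block gave −0.70 at 3 h and −1.24 at 6 h, and was called in neither fit. Fitted with the compared groups only, 1 member was called at 3 h (Cdkn1a), where the fit of all samples called 3. Between neighbouring timepoints 0 members were called from 3 to 6 h, 6 to 12 h, 18 to 24 h and 24 to 96 h by edgeR, with 3, 1, 1 and 2 at an unadjusted p below 0.05 and 1, 0, 0 and 1 called by DESeq2. Over all genes DESeq2 called 1338, 864, 229 and 844 in these steps, against 680, 278, 6 and 411 by edgeR. The fit of 2 groups called 1 at 3 to 6 h, 6 to 12 h and 24 to 96 h each (Gdf15), and an adjusted p below 0.05 without a fold limit called 1 at 3 to 6 h (Mdm2). From 12 to 18 h, 2 members (Cdkn1a and Ccng1) were called with library size scaling, without the filter, with the M number as a block and by DESeq2, where the fit of all samples called 1. With the M number as replicate block, 2, 4, 5, 7, 6 and 4 members were called at 3, 6, 12, 18, 24 and 96 h, and beside Ccng1 at 3 h, the step of Cdkn1a from 12 to 18 h and Cdkn1c at 18 h (then called lower), no member's call changed.

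Leaving out single samples, the members called against 0 h numbered 2 to 3 at 3 h, 4 at 6 h, 4 to 5 at 12 h, 5 to 7 at 18 h, 4 to 6 at 24 h and 4 to 5 at 96 h. Over all times 6 were called throughout, between 12 and 18 h 1 to 2, between 18 and 24 h 0, and in the other 3 neighbouring steps 0 to 1. The ratios of Cdkn1a to Mdm2, Ccng1, Trp53 and Gdf15 changed by 2.00 to 2.16, 2.87 to 3.14, 2.27 to 2.75 and −4.58 to 1.66. Without a fresh sample the adjusted p was at most 0.0741 for the first 3, since 1 sample against 17 cannot give less than 1 in 18. Changes of Cdkn1c and Cdkn2c ranged widely without single samples, mostly the fresh M3, and reached 0 or the other sign at every time except for Cdkn1c at 3 h: 0.02 to 8.56, −0.66 to 7.93, −7.53 to 4.95, −8.55 to 0, −7.54 to 6.88 and −7.54 to 5.86 for Cdkn1c, and −8.14 to 4.76, −9.11 to 0 at 4 times and −3.54 to 5.64 for Cdkn2c. Over samples with timepoint means removed, r with Cdkn1a reversed to 0.51 for Cdkn1b, 0.43 for Cdkn1c, −0.19 for Cdkn2b, 0.056 for Cdkn2c, −0.17 for Trp53 and −0.20 for Gdf15. The counts of p53 targets, an alternative chosen after seeing the data, gave 2 called lower by DESeq2 at 18 h and 2 with the isolation date at 6 h, where the edgeR fit without covariates gave 1 each. Over all genes, counted either way, these 2 settings called 3078 and 1733, against 2400 and 1715. The cause of the changes between settings was not tested. The depth of the fresh sample M3, 2073171 counts, limits low members most.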

Other observations

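ATF4 is a factor of the integrated stress response known to act on Gdf15, Sesn2 and Ddit4 as well. Of 6 genes on a list of its pathway, 4 were called higher after 3 h of culture (4.19% of all genes), 5 after 6 h (6.98%) and 5 after 12 h (8.6%). Atf4 itself, named after its values were seen, held 151 ± 44.9 CPM when fresh (SD, n = 2), 1528 ± 599 CPM after 6 h (SD, n = 3) and 223 ± 37.8 CPM after 96 h. Chac1, which degrades glutathione, held 0.752 and 2.51 CPM when fresh, 305 to 683 CPM at 6 h and 21.2 to 32.2 CPM at 96 h. Asns, asparagine synthetase, held 0 and 4.02 CPM when fresh, 222 to 245 CPM at 12 h and 20.7 to 35.6 CPM at 96 h, so its highest samples were at 12 h, as those of Gdf15 were. Trib3, a pseudokinase, was at 0 in both fresh samples and at 86.8 to 108 CPM at 12 h, at least 65.8-fold higher. Atf3, an immediate early gene of the list, held 247 and 456 CPM when fresh and was called lower at 18, 24 (−2.68) and 96 h.

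Among genes of cell division, Pcna, the DNA clamp of replication, was called higher at 3 h (1.34, adjusted p = 0.0988, edgeR) and 12 h (1.28, adjusted p = 0.0552, edgeR). Mcm5, of the replicative helicase, was at 0 in both fresh samples, at 14.9 to 21.2 CPM at 3 h (adjusted p = 0.221, edgeR) and at 64.1 to 110.4 CPM at 96 h (adjusted p = 0.0762, edgeR). Ccnd2, cyclin D2, held 1337 and 1417 CPM when fresh and 1295 to 1453 CPM at 3 h, and these 3 genes were named after their values were seen. Plk1, a mitotic kinase, was at 0 in all 16 samples up to 24 h and at 40.0 to 45.9 CPM at 96 h, at least 28.9-fold above the floor of the fresh samples (adjusted p = 0.065, edgeR). Cdk1, the mitotic CDK, was at 0 in all 8 samples from 12 to 24 h, at 87.1 to 114 CPM at 96 h, and at 0 and 36.2 CPM when fresh. Cdk6, a partner of D-type cyclins, held 93.8 and 102 CPM when fresh and 305 to 367 CPM at 96 h (1.78, adjusted p = 0.000548, edgeR). Of the 11 cyclins and kinases on the list, 7 were called over all times (27.4% of all genes), and of the 7 Rb and E2F genes 2, E2f1 and E2f2, a share near that background. Of 8 proliferation markers Top2a, Bub1 and Plk1 were called over all times (37.5%, against 27.4% of all genes). Against 0 h Top2a was called lower, at 12 h and 18 h, and it was called higher from 24 to 96 h. Ccnd1, cyclin D1, also named after its values were seen, was called lower at 3 h (−1.52, adjusted p = 0.0221, edgeR) and 6 h (−1.63). Its rise from 6 to 12 h was called. Of 9 tested regulators of p53, Trp53 was the one called against 0 h, at 12, 18 and 24 h (11.1%, against 17.7%, 15.9% and 9.51% of all genes). Usp7 and Atr were called with it over all times (33.3%, against 27.4%). These shares are near the background.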
